A study of Mus musculus with 6 samples.

Results

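Immune checkpoint genes encode the brakes and boosters of T cell activation. The 10 genes described here were taken by gene symbol from the 24346 symbols in the deposited expression values: the PD-1 ligands Cd274 and Pdcd1lg2 with their receptor Pdcd1, the B7 ligands Cd80 and Cd86 with the inhibitory receptor Ctla4, Lgals9 with its receptor Havcr2, the receptor Tigit, and the enzyme gene Ido1. All 10 were found, each had a value above 0 in at least 1 sample, and 6 had one in every sample.

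Checkpoint ligands sit on antigen-presenting cells, tumor cells and vessel walls, and their receptors sit mainly on activated T cells. PD-L1 (Cd274) and PD-L2 (Pdcd1lg2) bind PD-1 and dampen T cell receptor signalling, CTLA-4 competes with CD28 for CD80 and CD86, and galectin-9 (Lgals9) binds TIM-3 (Havcr2). In ECs, PD-L1 and IDO1, which breaks down tryptophan, are known to be induced by interferon-gamma.

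Endothelial cells (ECs) were sorted as CD31+ CD45- cells from subcutaneous tumors of the mouse colon carcinoma line MC38 in C57BL/6 mice. The 3 WT samples came from wild-type mice and the 3 Apelin-KO samples from mice with a knockout of the peptide gene Apln on the same strain background, whose allele the labels do not give. Mice were 8 to 10 weeks old, tumors were taken at day 19, and the sample names of both genotypes carry the word saline, for which no agent or schedule is given in the labels. RNA-sequencing values are FPKM, read numbers scaled by transcript length and by sequencing depth, so that levels can be set side by side between genes. The labels do not state whether each sample was 1 mouse, so p-values measure the spread between these samples.

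The targeted gene Apln stood at 457 ± 40.7 FPKM (SD, n = 3) in WT and 17.3 ± 7.20 FPKM (SD, n = 3) in Apelin-KO samples, in the direction of the labels. Estimated depth lay between 8970000 and 10230000 reads per sample. All 15 endothelial marker genes passed 1 FPKM on average, Pecam1 (CD31) and Cdh5 (VE-cadherin) among them, and their summed level was 5807 to 7075 FPKM in WT and 7243 to 7802 FPKM in Apelin-KO samples. Markers of other cells were present as well. Ptprc, which encodes the CD45 used to gate leukocytes out, ran from 0.0430 to 4.84 FPKM, and the 14 macrophage and monocyte markers summed to 227 to 864 FPKM in WT against 92.2 to 275 FPKM in Apelin-KO samples. The samples WT 1 and WT 2 held the most of both. The 10 hematopoietic markers, Ptprc among them, summed to 220 to 355 FPKM in WT and 219 to 265 FPKM in Apelin-KO samples. Of these 10, 9 had a higher mean in WT. The exception was Lcp1, the most abundant of them, at 109 to 114 FPKM in WT and 118 to 139 FPKM in Apelin-KO samples.

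Across the 10 genes the levels formed 3 steps. Lgals9 averaged 1102 FPKM over the 6 samples and Cd274 averaged 14.8 FPKM, while the other 8 genes stayed under 1 FPKM on average. Every sample had more Lgals9 than Cd274, with a ratio between 51.6 and 164, and more Cd274 than any other gene of the group. Below Cd274 the order was Havcr2, Cd86, Ido1, Pdcd1, Tigit, Ctla4, Cd80 and Pdcd1lg2, and the ranges of each pair of neighbours in this order overlapped over the samples. The plot of checkpoint gene levels by sample shows all values.

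**Figure D1:**
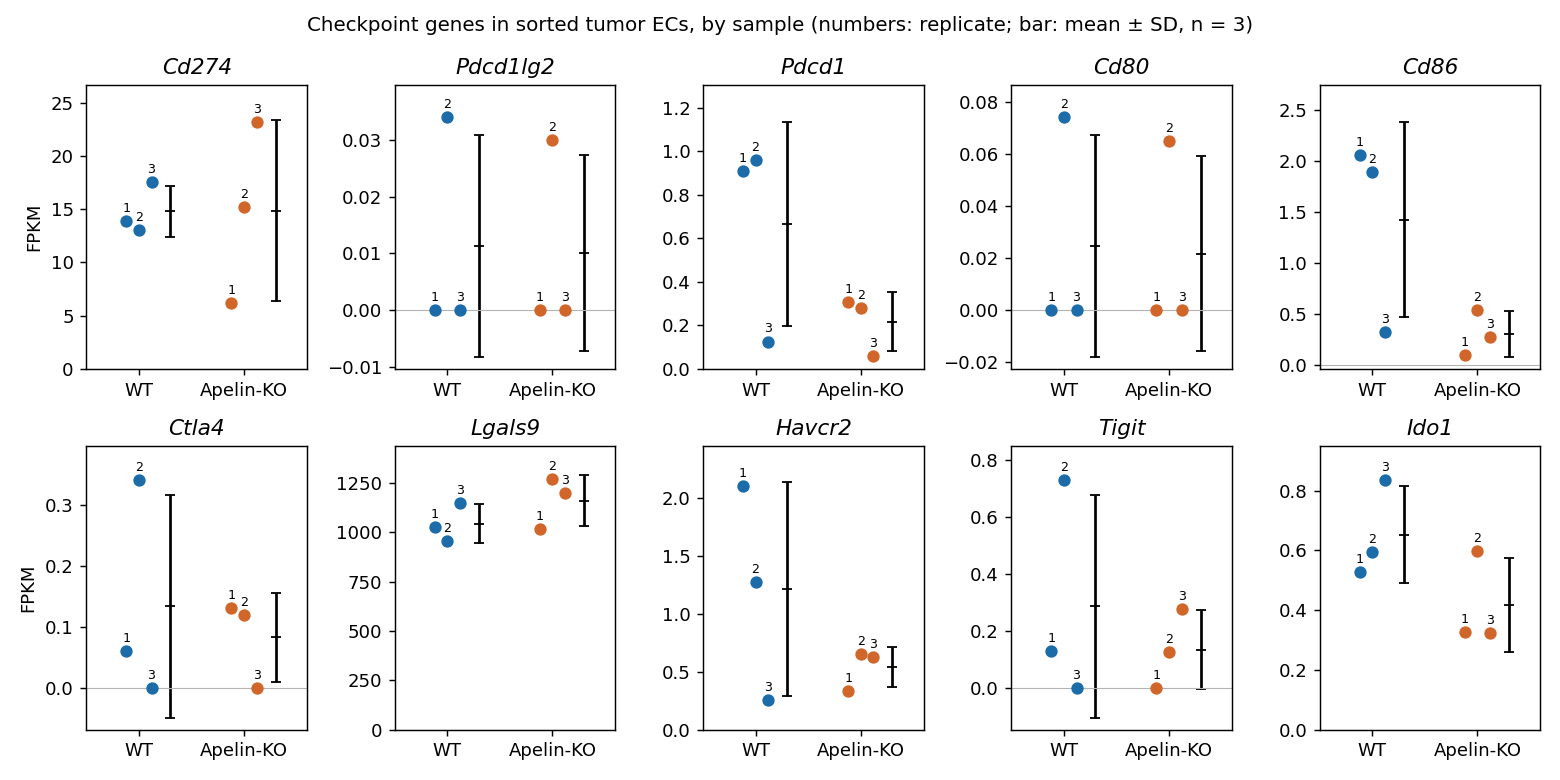
FPKM (linear axes, a scale of its own for each gene) of the 10 checkpoint genes in 3 WT and 3 Apelin-KO samples of sorted tumor ECs, with the replicate number above each point and mean ± SD (n = 3) beside them. The genotypes overlap for every gene, and Cd80 and Pdcd1lg2 have a value above 0 only in WT 2 and Apelin-KO 2.

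No checkpoint gene passed the adjusted threshold between the genotypes. The genotypes were set against each other by limma, a linear model that shares the spread between genes, on log2(FPKM + 1). It took in genes that averaged 1 FPKM or more, Benjamini-Hochberg adjustment ran over all of them, and a positive difference means a higher level in WT. Only 2 of the 10 genes passed this filter, Lgals9 and Cd274, and 0 of the 2 had an adjusted p-value under 0.05, where 0.00912% of all genes tested had one. At an unadjusted p-value under 0.05 the count was again 0 of 2, against 9.42% of all genes tested, and with each gene's own variance the adjusted count was also 0 of 2. When limma was fitted without the filter to every gene above 0 in at least 1 sample, all 10 entered. Then 0 of 10 had an adjusted p-value under 0.05 (0.0122% of all genes) and 0 of 10 an unadjusted p-value under 0.05 (8.89% of all genes). The unadjusted count depended on the samples included. Without WT 3 it was 3 of 10, namely Cd86, Pdcd1 and Havcr2, all higher in WT, against 11.9% of all genes in that fit. Without Apelin-KO 2 it was 1 of 10, Ido1, against 9.81% of all genes in that fit. The adjusted count was 0 of 10 in both. The groups failed to overlap for 0 of the 10 genes, against 12.6% of the genes above 0 in at least 1 sample. A p-value that misses the threshold does not show equal levels, and the intervals given below are wide for most genes.

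**Figure D2:**
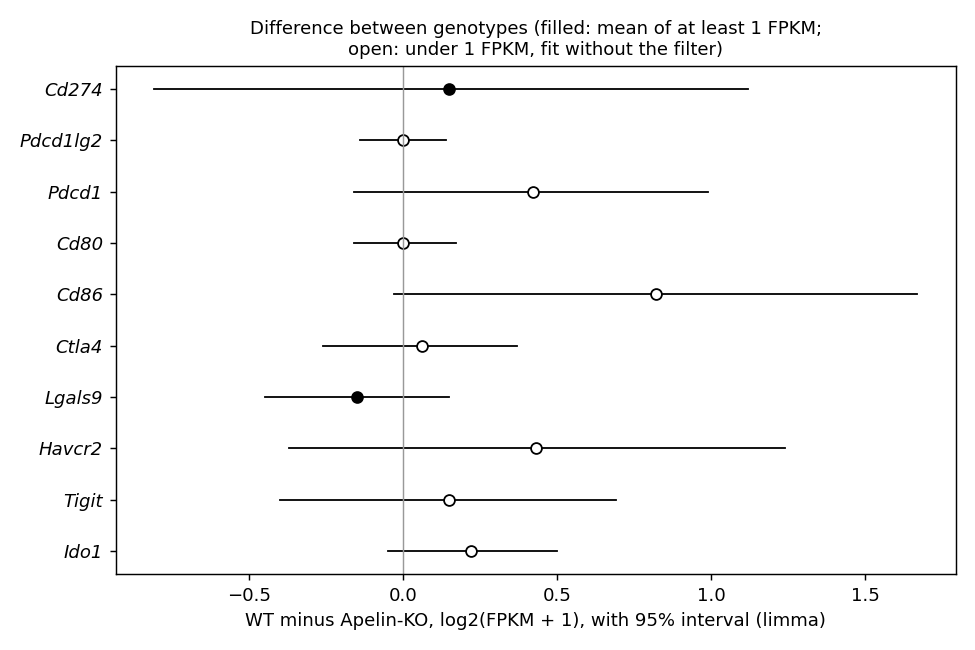
Difference between genotypes for each checkpoint gene, WT minus Apelin-KO on the log2(FPKM + 1) scale, with the 95% interval from limma. Filled points are genes that averaged 1 FPKM or more, open points are genes under that level, from the fit without the filter. Every interval includes 0, from -0.81 to 1.12 for Cd274 and from -0.03 to 1.67 for Cd86. The narrow intervals of Cd80 and Pdcd1lg2 rest on 2 reads each and on the pseudocount of 1. Their standard errors were 0.07 and 0.06, and 1.25 and 0.86 with a pseudocount of 0.01.

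Lgals9 encodes galectin-9, a secreted lectin with paired sugar-binding domains that binds TIM-3 among other glycoproteins. It was one of the most abundant transcripts of the sorted ECs, with rank 31 of 24346 by mean FPKM, and stood at 162% of the mean level of Pecam1. Lgals9 was 1028, 953 and 1149 FPKM in WT 1, 2 and 3, and 1016, 1268 and 1196 FPKM in Apelin-KO 1, 2 and 3. The lowest Apelin-KO sample lay below WT 1 and WT 3, so that the groups overlapped, and WT 2 was the lowest of all 6. The means were 1043 ± 98.8 FPKM (SD, n = 3) in WT and 1160 ± 130 FPKM (SD, n = 3) in Apelin-KO samples. The difference was -0.15 on the log2 scale (standard error 0.13, 95% interval -0.45 to 0.15, adjusted p = 0.732 from limma). It was -0.24 without Apelin-KO 1, -0.09 without WT 2 and -0.08 without Apelin-KO 2. An estimated 11861 to 17992 reads per sample stood behind these values.

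On the minus strand of chromosome 11 (GRCm38), Lgals9 spans bases 78962974 to 78984946. The 250 bases before its RefSeq start are shown here because Lgals9 and Cd274 are the expressed checkpoint ligands and both are known interferon-responsive genes. The window was searched on both strands for an interferon-stimulated response element (ISRE, here GAAA, any 2 bases and GAAA), an NF-kB-like site (GGG, any 5 bases and CC) and a TATA box (TATAAA). In the Lgals9 window, chr11:78984925-78985174 (GRCm38.p6, minus strand), the capitals mark first an NF-kB-like match at -129 and then an ISRE match at -55, counted from the start. An ISRE match was present in 2.98% of the 32851 RefSeq promoter windows of the same length, an NF-kB-like match in 45.8% and a TATA match in 12.4%.

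Lgals9: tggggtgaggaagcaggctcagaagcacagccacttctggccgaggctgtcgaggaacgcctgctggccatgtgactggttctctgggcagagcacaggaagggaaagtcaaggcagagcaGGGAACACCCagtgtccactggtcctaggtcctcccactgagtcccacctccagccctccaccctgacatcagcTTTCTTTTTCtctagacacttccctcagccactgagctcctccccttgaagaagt

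Among the genes of the group, 8 had a promoter window in RefSeq, and Lgals9 was the single one of the 8 with an ISRE match. None of the 8 had a TATA match in these letters. The windows of Cd86 and Ido1 were not among them.

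Cd274 encodes PD-L1, the ligand that tumor vessels can present to PD-1 on passing T cells. It was 13.9, 13.0 and 17.5 FPKM in WT 1, 2 and 3, and 6.19, 15.2 and 23.2 FPKM in Apelin-KO 1, 2 and 3. The lowest and the highest of the 6 samples were both Apelin-KO, and the WT samples lay between them. The means were 14.8 ± 2.38 FPKM (SD, n = 3) in WT and 14.8 ± 8.49 FPKM (SD, n = 3) in Apelin-KO samples. The difference on the log2 scale was 0.15 (standard error 0.41, 95% interval -0.81 to 1.12, adjusted p = 0.925 from limma). It depended on a single sample, since it was -0.33 without Apelin-KO 1 (adjusted p = 0.631 from limma) and 0.54 without Apelin-KO 3 (adjusted p = 0.770 from limma). The values rest on an estimated 198 to 747 reads per sample.

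Cd274 lies on chromosome 19 from 29367455 to 29388095 on the plus strand, and an annotated antisense gene, AC119228.1, overlaps its exons on the other strand. The libraries were stranded, but the strand setting of the authors' quantification is not stated in the sources used here, so reads of the antisense gene cannot be told apart if strand was not used. Pdcd1lg2, the gene of PD-L2, starts 43464 bases downstream on the same strand. The promoters of these neighbours are shown together because they belong to ligands of the same receptor, one plain in these samples and the other barely detected. In the Cd274 window, chr19:29367188-29367437 (GRCm38.p6, plus strand), none of these 3 motifs was found, and 11 CpG dinucleotides were present against a median of 6 over all windows. The Pdcd1lg2 window, chr19:29410669-29410918 (plus strand), held 3 CpG dinucleotides and an NF-kB-like match at -244, which the capitals mark.

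Cd274: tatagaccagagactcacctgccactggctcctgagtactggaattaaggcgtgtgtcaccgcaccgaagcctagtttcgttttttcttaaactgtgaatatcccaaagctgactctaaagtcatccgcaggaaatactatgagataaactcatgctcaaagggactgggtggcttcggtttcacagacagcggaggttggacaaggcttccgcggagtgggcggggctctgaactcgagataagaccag
Pdcd1lg2: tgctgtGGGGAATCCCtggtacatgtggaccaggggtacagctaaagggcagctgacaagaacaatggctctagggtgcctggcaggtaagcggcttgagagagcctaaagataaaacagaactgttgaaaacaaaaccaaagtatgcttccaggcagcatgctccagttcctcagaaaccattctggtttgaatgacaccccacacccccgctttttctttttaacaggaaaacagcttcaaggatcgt

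Pdcd1lg2 was 0.0340 FPKM in WT 2 and 0.0300 FPKM in Apelin-KO 2, and was listed at 0 in the other 4 samples. Both values match 1 read each, by the step that a read makes in the low FPKM of these samples, or an estimated 0.467 and 0.469 reads by the length of the longest annotated transcript. PD-L2 is known mainly from dendritic cells and macrophages, and at this depth its transcript was barely detectable in the sorted ECs of either genotype.

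Pdcd1 encodes PD-1 itself, which is found on activated and exhausted T cells. It was 0.909, 0.961 and 0.126 FPKM in WT 1, 2 and 3, and 0.308, 0.281 and 0.0610 FPKM in Apelin-KO 1, 2 and 3. WT 1 and WT 2 were the highest samples, while WT 3 lay below Apelin-KO 1 and 2. These values stand for 16, 15 and 2 reads in WT and 5, 5 and 1 reads in Apelin-KO samples, and 0.0562 FPKM is what a read is worth in the deepest sample, Apelin-KO 2. The means were 0.665 ± 0.468 FPKM (SD, n = 3) in WT and 0.217 ± 0.135 FPKM (SD, n = 3) in Apelin-KO samples (exact permutation test of log2(FPKM + 1), two-sided, p = 0.3). The smallest p-value that 3 against 3 allows is 0.1. In the limma fit without the filter the difference was 0.42 on the log2 scale (standard error 0.24, 95% interval -0.16 to 0.99, adjusted p = 0.644). It was 0.28 without WT 2 and 0.68 without WT 3.

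The B7 ligands were low as well. Cd86, the B7 gene that resting macrophages and dendritic cells carry, was 2.06, 1.89 and 0.326 FPKM in WT 1, 2 and 3. The Apelin-KO samples 1, 2 and 3 stood at 0.0910, 0.540 and 0.271 FPKM. WT 1 and WT 2 again stood above the rest, and WT 3 lay within the range of the Apelin-KO samples. The whole reads were 49, 40 and 7 in WT and 2, 13 and 6 in Apelin-KO samples. The means were 1.43 ± 0.956 FPKM (SD, n = 3) and 0.301 ± 0.226 FPKM (SD, n = 3), with an exact permutation p-value of 0.2 (two-sided). The difference of 0.82 on the log2 scale was the largest of the group (standard error 0.35, 95% interval -0.03 to 1.67, unadjusted p = 0.0565 and adjusted p = 0.562 from limma without the filter). It was 0.61 without WT 1 and 1.21 without WT 3.

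Cd80, the B7 gene that is switched on with activation, was 0.0740 FPKM in WT 2 and 0.0650 FPKM in Apelin-KO 2 and was listed at 0 in the other 4 samples. Each of these values is 1 read by the step in the low FPKM, or an estimated 1.98 reads by the length of the longest annotated transcript. Ctla4, whose product is stored in regulatory T cells and competes with CD28, was 0.0610, 0.342 and 0 FPKM in WT 1, 2 and 3, and 0.131, 0.12 and 0 FPKM in Apelin-KO 1, 2 and 3. These are 1, 5 and 0 reads in WT and 2, 2 and 0 reads in Apelin-KO samples, with no order between the genotypes (exact permutation test, two-sided, p = 0.9). Foxp3, the defining regulatory T cell gene, ran between 0 and 0.146 FPKM, with its highest value in WT 2, where Ctla4 was highest too.

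Havcr2 encodes TIM-3, a receptor on exhausted T cells and on myeloid cells. It was 2.1, 1.27 and 0.259 FPKM in WT 1, 2 and 3, and 0.337, 0.654 and 0.627 FPKM in Apelin-KO 1, 2 and 3. The lowest of all 6 samples was WT 3 and the highest were WT 1 and WT 2. The reads were 54, 29 and 6 in WT and 8, 17 and 15 in Apelin-KO samples. The means were 1.21 ± 0.922 FPKM (SD, n = 3) and 0.539 ± 0.176 FPKM (SD, n = 3), with an exact permutation p-value of 0.4 (two-sided). The log2 difference was 0.43 (standard error 0.33, 95% interval -0.37 to 1.24, adjusted p = 0.734 from limma without the filter), and it was 0.14 without WT 1 and 0.79 without WT 3. The ligand Lgals9 exceeded Havcr2 by 490 to 4435 times within a sample.

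Tigit encodes a T cell and NK cell receptor for CD155 (Pvr) and CD112 (Nectin2). It was 0.130, 0.731 and 0 FPKM in WT 1, 2 and 3 and 0, 0.128 and 0.278 FPKM in Apelin-KO 1, 2 and 3. That is 1, 5 and 0 reads against 0, 1 and 2 reads, and the exact permutation p-value was 0.7 (two-sided). The ligands of TIGIT were plain in the same samples. Nectin2 was 88.1 ± 16.6 FPKM (SD, n = 3) in WT and 114 ± 25.5 FPKM (SD, n = 3) in Apelin-KO samples, with an adjusted p-value of 0.611 from limma. Pvr was 18.0 ± 3.60 and 22.7 ± 8.17 FPKM (SD, n = 3), with an adjusted p-value of 0.792 from limma.

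Ido1 encodes the enzyme that opens the tryptophan ring on the way to kynurenine. It was 0.528, 0.595 and 0.835 FPKM in WT 1, 2 and 3, and 0.327, 0.597 and 0.324 FPKM in Apelin-KO 1, 2 and 3. Of the Apelin-KO samples, 2 lay below every WT sample and Apelin-KO 2 lay among them, so that the groups overlapped. Its reads were 7, 7 and 10 in WT and 4, 8 and 4 in Apelin-KO samples. The means were 0.653 ± 0.161 FPKM (SD, n = 3) and 0.416 ± 0.157 FPKM (SD, n = 3), with an exact permutation p-value of 0.3 (two-sided). The log2 difference was 0.22 (standard error 0.11, 95% interval -0.05 to 0.50, adjusted p = 0.614 from limma without the filter).

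The spread over samples differed from gene to gene. Cd86, Pdcd1 and Havcr2 were highest in WT 1 and WT 2, the samples with the most Ptprc and Csf1r. In WT 3, Cd86 stood at 15.8%, Pdcd1 at 13.1% and Havcr2 at 12.3% of their highest sample, where Ptprc stood at 26.1% and Csf1r, the macrophage growth factor receptor, at 26.9%. The order was not shared throughout. In Apelin-KO 1, Ptprc stood at 0.888% and Csf1r at 10.2%, while Pdcd1 stood at 32.0%, Havcr2 at 16.0% and Cd86 at 4.42%. Ptprc itself was 3.13, 4.84 and 1.26 FPKM in WT 1, 2 and 3 and 0.0430, 1.70 and 0.740 FPKM in Apelin-KO 1, 2 and 3. All 14 macrophage and monocyte markers had a higher mean in WT samples, while their sums overlapped between the genotypes. The 9 fibroblast markers also summed highest in WT 1 and WT 2, at 326 and 335 FPKM, against 193 FPKM in WT 3 and 127 to 200 FPKM in Apelin-KO samples. All 15 endothelial markers had a lower mean in WT samples, and their sums did not overlap. By limma, 4 of these 15 and 7 of the 13 macrophage and monocyte markers above 1 FPKM had an unadjusted p-value under 0.05 (9.42% of all genes tested), and 0 of either list an adjusted one. In the fit without the filter the unadjusted counts were 6 of 15 and 3 of 14 (8.89% of all genes in that fit), and the adjusted counts again 0. Of all genes tested, 47.5% were higher in WT. T cell markers were near the floor in both genotypes. Cd3e, a chain of the T cell receptor complex, ran from 0.0860 to 0.239 FPKM, 7 of the 9 matched T cell markers averaged under 1 FPKM, and none was at 0 in all samples. The summed T cell level, most of it Lck and Cd247, was 11.6 to 13.7 FPKM in WT and 10.7 to 11.3 FPKM in Apelin-KO samples. In such sorted bulk samples, fewer cells of a type and less RNA per cell cannot be told apart, and the part of other cell types in the levels of Cd86, Pdcd1 and Havcr2 was not tested.

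**Figure D3:**
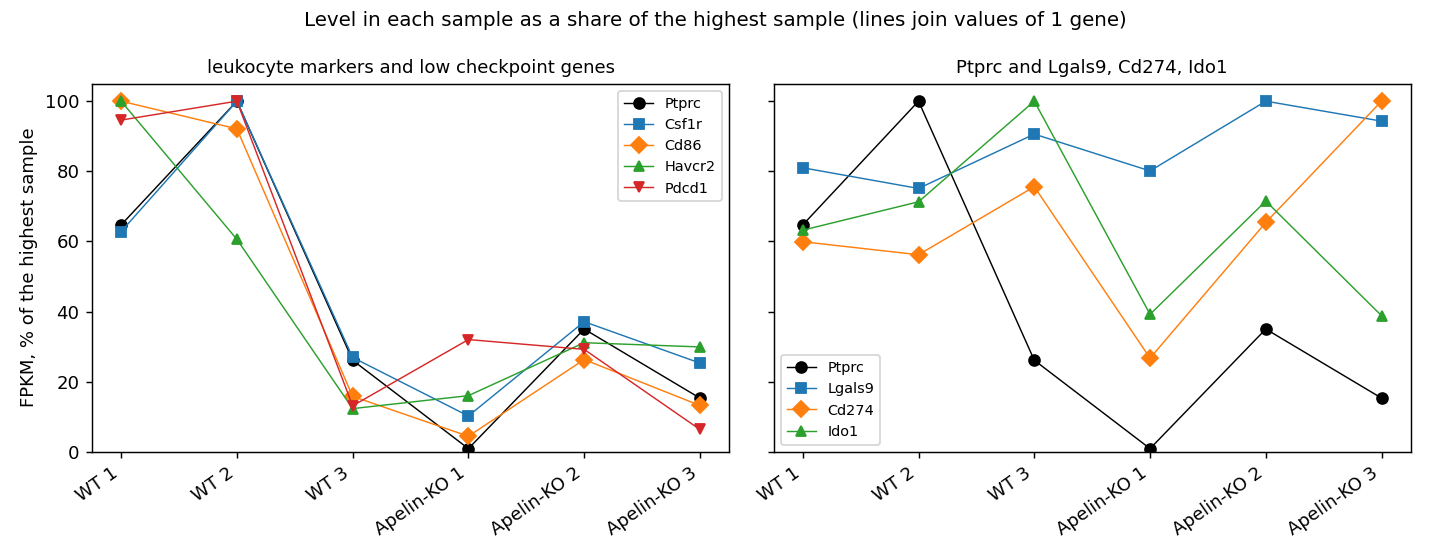
FPKM in each of the 6 samples as a percentage of the gene's highest sample. On the left, Cd86, Havcr2 and Pdcd1 are shown with the leukocyte gene Ptprc and the macrophage gene Csf1r, and all 5 are highest in WT 1 or WT 2. On the right, Lgals9 stays between 75.1% and 100% in every sample, while Cd274 and Ido1 peak in Apelin-KO 3 and WT 3, where Ptprc stands at 15.3% and 26.1%.

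Lgals9, Cd274 and Ido1 had another order of samples. Their highest samples were Apelin-KO 2, Apelin-KO 3 and WT 3, and none of these held the most Ptprc. The genes most like Cd274 over the 6 samples were Ifit3, Btg3 and Bmp2, by the root mean square difference of centred log2(FPKM + 1) profiles. These differences were 0.19, 0.19 and 0.20 log2 units, beside a standard deviation of 0.59 for Cd274 itself, among 1966 genes with enough spread to be considered. Ifit3, an interferon-induced gene, was 69.6, 64.9 and 86.1 FPKM in WT and 43.0, 63.2 and 125 FPKM in Apelin-KO 1, 2 and 3. It shared with Cd274 the lowest sample, Apelin-KO 1, and the highest, Apelin-KO 3. Btg3 and Bmp2 shared both samples too, and these genes were picked for a like profile. The genes most like Lgals9 were Rbsn, Osbp and Cdr2, at 0.0094, 0.029 and 0.033 log2 units. Lgals9 varied little, with a standard deviation of 0.16, so that many genes come close to it by this measure.

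The wider list of co-stimulatory and checkpoint genes held 35 genes, all of which were matched, and 14 averaged at least 1 FPKM. None of the 14 had an adjusted p-value under 0.05 by limma. By unadjusted p-value under 0.05, 2 were higher in WT and 0 lower, where 9.42% of all genes tested passed in either direction, and the median log2 difference of -0.03 lay beside -0.01 for all genes tested. The leading genes were Cd47, the "don't eat me" signal read by SIRP-alpha, Cd200, which restrains myeloid cells, and Cd276, the B7-family member B7-H3. Cd47 was 313 ± 14.4 FPKM (SD, n = 3) in WT and 329 ± 42.4 FPKM (SD, n = 3) in Apelin-KO samples. Cd200 was 307 ± 47.1 and 275 ± 30.1 FPKM (SD, n = 3), and Cd276 was 197 ± 16.1 and 195 ± 5.76 FPKM (SD, n = 3). Within the B7 family, Cd276 exceeded Cd274 by 8.41 to 30.7 times within a sample.

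These 2 genes, named after their values were seen, are Sirpa and Cd48. Sirpa, a myeloid receptor for CD47, was 21.8 ± 6.03 FPKM (SD, n = 3) in WT and 13.4 ± 1.81 FPKM (SD, n = 3) in Apelin-KO samples, with an adjusted p-value of 0.509 from limma. Cd48, a leukocyte surface gene, was 9.02 ± 5.70 and 2.85 ± 1.47 FPKM (SD, n = 3), with the same adjusted p-value of 0.509 from limma. Both were highest in WT 1 and WT 2, as Ptprc was. With every gene above 0 taken in, 29 genes of the list entered the limma fit, 5 were higher in WT and 0 lower by unadjusted p-value under 0.05 (8.89% of all genes in that fit), and 0 had an adjusted p-value under 0.05. The further 3 were Tnfsf18, Cd96 and Cd200r1, each under 1 FPKM in every sample and with no overlap between the groups, as for 12.6% of all genes in that fit. Tnfsf18, the ligand of the co-stimulatory receptor GITR, was 0.475, 0.951 and 0.643 FPKM in WT and 0.171, 0.156 and 0.170 FPKM in Apelin-KO samples (unadjusted p = 0.00343, adjusted p = 0.510 from limma). Among receptors of the list that T cells are known to carry, Cd28, Icos, Cd226, Cd96, Lag3 and Btla each stayed at or under 0.665 FPKM in every sample. Others were higher, since Tnfrsf18 reached 0.741 FPKM, Cd27 reached 1.51 FPKM, and Tnfrsf9, the 4-1BB gene, ran from 101 to 175 FPKM.

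**Figure D4:**
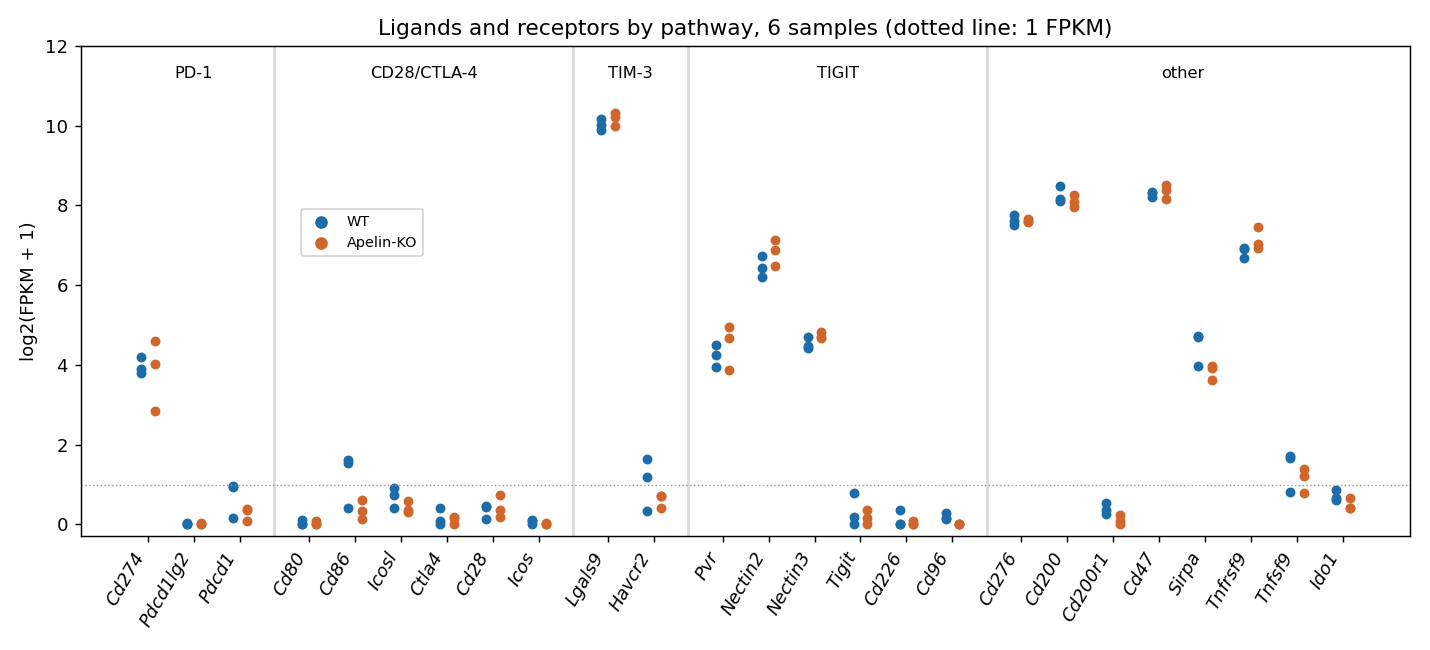
Log2(FPKM + 1) of ligands and receptors grouped by pathway, with 3 WT points and 3 Apelin-KO points per gene and a dotted line at 1 FPKM. Lgals9, Cd47, Cd200, Cd276, Tnfrsf9 and Nectin2 stand high in all 6 samples, and the receptors Pdcd1, Ctla4, Tigit, Cd28, Cd226 and Cd96 stay under 1 FPKM in each.

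Of the 22 genes listed for the interferon-gamma pathway, which is known to drive Cd274 and Ido1, 19 averaged at least 1 FPKM. None of the 19 had an adjusted p-value under 0.05 by limma, 1 was higher and 0 lower in WT when the unadjusted p-value was read (9.42% of all genes tested in either direction), and their median log2 difference was 0.16 beside -0.01 for all genes tested. The receptor and kinase genes were abundant, with Ifngr1 at 133 ± 11.5 and 138 ± 8.39 FPKM (SD, n = 3) and Jak1 at 131 ± 10.2 and 136 ± 12.4 FPKM (SD, n = 3) in WT and Apelin-KO ECs. Cxcl10, an interferon-induced T cell chemokine, was 211 ± 31.4 and 245 ± 207 FPKM (SD, n = 3), and like Cd274 it was lowest in Apelin-KO 1 and highest in Apelin-KO 3, at 77.4 and 477 FPKM. The single gene past the unadjusted threshold was Ptpn2, a phosphatase that dampens cytokine signalling, at 21.2 ± 1.49 and 16.7 ± 1.68 FPKM (SD, n = 3), with an adjusted p-value of 0.507 from limma. Ifng itself had a value above 0 only in WT 2, at 0.442 FPKM.

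Of the 15 genes listed for tryptophan and kynurenine handling, 6 averaged at least 1 FPKM, none of them with an unadjusted or adjusted p-value under 0.05 by limma (9.42% and 0.00912% of all genes tested), and their median log2 difference was 0.06 beside -0.01 for all genes tested. The leading ones were Wars1, the interferon-inducible tryptophan tRNA ligase, and Slc3a2 and Slc7a5, which together form an amino acid transporter. Wars1 was 75.4 ± 5.71 FPKM (SD, n = 3) in WT and 72.7 ± 15.4 FPKM (SD, n = 3) in Apelin-KO samples. Of the other enzymes in the list, Ido2, Tdo2, Kmo, Kynu and Haao each stayed at or under 0.434 FPKM in every sample. Afmid, which acts on the product of IDO1, reached 0.968 FPKM, and the kynurenine aminotransferase genes Kyat1 and Kyat3 ran from 1.80 to 2.88 FPKM and from 1.63 to 3.25 FPKM.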

How the data were processed

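Sorted tumor ECs, 3 WT and 3 Apelin-KO samples, were profiled by RNA-sequencing. Stranded mRNA libraries were read by the authors as 75-base single-end reads and mapped to mm10. The submitters' processing notes list TopHat2 2.1.1, Bowtie2 2.2.4, SAMtools 1.0 and Cufflinks 2.2.1. The deposited values are FPKM, 1 per gene symbol and sample, without read counts. The annotation and strand setting used by the authors are not given in the sources used here.

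FPKM were used as deposited, with a pseudocount of 1 on the log2 scale and a filter at a mean of at least 1 FPKM, which left 10964 genes. The comparison between genotypes used R 4.3.3 and limma 3.58.1 (two-sided moderated test, Benjamini-Hochberg adjustment over all genes tested). An unmoderated test with each gene's own variance was an alternative. Genes under the filter got an exact permutation test of 3 against 3. On simulated log2(FPKM + 1) values of 10964 genes, 93% of 200 genes changed 4-fold in FPKM + 1 were recovered, with a median log2 difference of 1.98. The 8 checkpoint genes under the filter were not part of it, and smaller changes were not simulated. Other alternatives changed the pseudocount, filter, scaling, variance model, sample weights and samples, or added a replicate block.

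Relative depth came from the step that 1 read makes in low FPKM, and absolute depth from genes with a single annotated transcript and an assumed fragment of 200 bases. Whole reads were accepted within 0.1 read or 1% of the value. Read numbers by length use the longest annotated transcript. They are estimates, and no count test was run. Positions come from GENCODE M21 on GRCm38, promoters from RefSeq on GRCm38.p6, and older gene symbols were matched through RefSeq synonyms. One further motif is not reported here. Scripts ran in Python 3.11.15 (matplotlib 3.10.9, pandas 2.3.3, numpy 2.4.6).

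The members, gene lists and motifs were chosen with earlier results of these data known. Genes named beside the members are the 3 with the highest mean of a list, defining markers, and the 3 most like each member above 1 FPKM. For the cell type marker lists, the 3 highest were not all named. Others were named after their values were seen.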

Additional observations from a re-analysis of the deposited data

How the results depend on the processing

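With the filter, 16 of the 17 alternatives tested Cd274 and Lgals9 alone and 1, without the filter, tested all 10 checkpoint genes. None gave either an adjusted or an unadjusted p-value under 0.05 to any of them. The fit of all 10 without the filter was then repeated under 15 alternatives chosen after seeing the data. The adjusted count was 0 in each. The unadjusted count, 0 at first, was 1 with an intensity trend (Cd86, adjusted p = 0.567 from limma), against 8.78% of all genes in that fit. With the replicate block it was 1 (Pdcd1, adjusted p = 0.607 from limma), against 8.17% of all genes. The count ranged from 0 to 3 when a sample was left out. It was 3 without WT 3, against 11.9% of all genes, with adjusted p-values from limma of 0.200 for Cd86, 0.230 for Pdcd1 and 0.262 for Havcr2. Without Apelin-KO 2 it was 1 (Ido1, adjusted p = 0.472 from limma), against 9.81% of all genes. The number of all genes with an adjusted p-value under 0.05, 1 by the planned comparison, was 2 in each of 4 settings (no filter, a mean of at least 5 FPKM, an intensity trend, a pseudocount of 0.01) and 0 with each gene's own variance. It ranged from 0 to 3 when each sample was left out in turn, with 3 genes without WT 1, 2 genes without WT 3 or Apelin-KO 1, and 0 genes without WT 2 or Apelin-KO 2. The log2 difference of Cd274 turned to -0.33 without Apelin-KO 1 and lay between -0.33 and 0.54 over the alternatives, with adjusted p-values from limma between 0.631 and 0.990. That of Lgals9 kept its direction under all 17 alternatives, between -0.24 and -0.08, with adjusted p-values between 0.575 and 0.981. For Pdcd1, Cd86, Havcr2 and Ido1 the direction held under all 12 alternatives that gave a value, and for Ctla4 and Tigit it turned without WT 2, to -0.07 and -0.09, while Ctla4 came to -0.00 without Apelin-KO 3. With pseudocounts of 0.1 and 0.01, the difference was 1.78 and 2.13 for Cd86, 1.09 and 1.40 for Pdcd1, 0.73 and 0.77 for Havcr2, 0.56 and 0.67 for Ido1, 0.38 and 0.46 for Tigit, and 0.16 and 0.15 for Ctla4. The labels do not say whether replicate numbers pair the samples. The deviations of same-numbered samples correlated at -0.14, 0.21 and -0.02. Those of other-numbered samples lay between -0.20 and 0.21, so these correlations cannot decide whether samples were paired. With the replicate block, 1 gene had an adjusted p-value under 0.05 and 0 were checkpoint genes. Genes with a few reads per sample limit what these data can show. Ctla4 had 6 reads in WT and 4 in Apelin-KO samples, Tigit 6 and 3, and Cd80 and Pdcd1lg2 1 and 1.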

Other observations

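Several immune genes outside the checkpoint group were plain in the sorted tumor ECs of both genotypes. Tnfrsf9, which encodes the co-stimulatory receptor 4-1BB, was 101, 120 and 121 FPKM in WT 1, 2 and 3 and 121, 129 and 175 FPKM in Apelin-KO 1, 2 and 3. The Apelin-KO samples all lay above the WT samples, though WT 3 and Apelin-KO 1 both round to 121 FPKM. The groups failed to overlap for 12.6% of the genes above 0 in at least 1 sample. The log2 difference of -0.30 (standard error 0.16) had an adjusted p-value of 0.606 from limma. Its ligand Tnfsf9 averaged 1.74 ± 0.862 FPKM (SD, n = 3) in WT and 1.22 ± 0.452 FPKM (SD, n = 3) in Apelin-KO samples. Cd40, the co-stimulatory receptor through which T cells license antigen-presenting cells and endothelium, was 42.4 ± 5.63 and 38.1 ± 2.94 FPKM (SD, n = 3), while its ligand Cd40lg was listed at 0 in all 6 samples.

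The T cell kinase gene Lck stood at 8.49 ± 0.491 FPKM (SD, n = 3) in WT and 7.55 ± 0.162 FPKM (SD, n = 3) in Apelin-KO samples, while Cd3e stayed between 0.0860 and 0.239 FPKM. Its level varied less over the samples than that of Ptprc. Zbtb46, a transcription factor gene used as a dendritic cell marker, was 20.6 ± 0.872 and 22.5 ± 1.20 FPKM (SD, n = 3), and Itgax, another such marker, stayed under 1 FPKM in every sample. These genes were chosen after their values were seen, and the cells that express them were not identified here.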
